A study of Mus musculus with 15 samples.

Results

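The genes described are 10 heat shock genes given as a fixed list: Hspa1a, Hspa1b, Hspa8, Hsph1, Hspb1, Dnajb1, Hsp90aa1, Hspd1, Hspe1 and Bag3. Every probe set that the platform's annotation assigns to 1 of these symbols alone was taken, which gave 23 of 34945 single-symbol probe sets, and 10 of 18193 genes. All 23 passed the filter on dim signals. The list is named for cytosolic heat shock genes, and that name does not hold for Hspd1 and Hspe1, whose products form the chaperonin of the mitochondrial matrix.

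RNA of primary hepatocytes from C57BL/6 mice was hybridised to 15 arrays (Affymetrix Mouse Genome 430 2.0), 3 for each of 5 groups. In the 48-hour arm, adenoviruses carried EGFP as the control, wild-type IRE1a (WT) or the S724A form, whose serine at that position is an alanine, with no further treatment. In the 72-hour arm, adenoviruses carried a control hairpin (shCON) or a hairpin against IRE1a (shIRE1a), and glucagon was then added for 4 hours. IRE1a, encoded by Ern1, is a stress sensor of the endoplasmic reticulum (ER). All groups share the culture medium HepatoZYME-SFM and an adenovirus infection, and none was left uninfected. The labels do not give the viral dose, the promoters or the number of mice, and where arrays come from 1 pool of cells the p-values measure only the spread between these arrays. Virus, hours of infection and glucagon differ together between the arms, so their parts in any difference between EGFP and a hairpin group cannot be told apart.

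Heat shock proteins are chaperones that bind unfolded or partly folded proteins and help them fold, keep them soluble or pass them to degradation. When misfolded protein accumulates in the cytosol, the transcription factor HSF1 is released from chaperones, forms trimers and binds heat shock elements, which are arrays of the unit nGAAn in alternating orientation. Hepatocytes hold large amounts of the constitutive chaperones and can induce the HSP70 genes strongly under stress.

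The promoters of the HSP70 pair and of Hspb1, and a stretch shared by the divergent chaperonin genes, are printed because the members with the largest differences and members with none past the test are among them. Each sequence is from RefSeq (GRCm38.p6), runs 5′ to 3′ on the gene's strand, and has the matches to GAANNTTC or TTCNNGAA in capitals. The first 3 are the 250 bases before the start, at chr17:34972157-34972406 (minus strand, Hspa1a), chr17:34959239-34959488 (minus strand, Hspa1b) and chr5:135887669-135887918 (plus strand, Hspb1). The last is a stretch of the promoter of Hspe1 at chr1:55088053-55088082 (plus strand), which also lies within the annotated span of Hspd1.
Hspa1a: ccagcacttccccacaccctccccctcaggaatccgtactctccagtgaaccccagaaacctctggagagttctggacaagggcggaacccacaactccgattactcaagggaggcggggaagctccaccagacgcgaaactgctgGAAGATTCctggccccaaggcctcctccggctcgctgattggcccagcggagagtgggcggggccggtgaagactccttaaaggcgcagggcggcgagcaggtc
Hspa1b: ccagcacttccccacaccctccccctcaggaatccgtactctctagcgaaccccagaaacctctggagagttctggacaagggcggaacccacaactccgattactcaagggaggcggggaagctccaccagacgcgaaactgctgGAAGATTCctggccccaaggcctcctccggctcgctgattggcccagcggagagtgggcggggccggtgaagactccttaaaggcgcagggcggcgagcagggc
Hspb1: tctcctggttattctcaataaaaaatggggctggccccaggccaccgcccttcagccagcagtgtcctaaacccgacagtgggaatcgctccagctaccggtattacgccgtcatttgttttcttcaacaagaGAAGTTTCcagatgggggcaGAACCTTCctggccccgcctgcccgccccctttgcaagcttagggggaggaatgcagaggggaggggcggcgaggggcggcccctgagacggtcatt
Hspe1: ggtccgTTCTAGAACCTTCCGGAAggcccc

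The windows of Hspa1a and Hspa1b, neighbouring genes 10120 bases apart, were identical at 247 of 250 bases (98.8%). They differed by C44T, T47C and T249G, with the base of Hspa1a first, positions counted from 1 at the 5′ end of the window, and the base of Hspa1b last. Both held the match GAAGATTC from 104 to 97 bases before the start. The window of Hspb1 held 2 matches, from 117 to 110 and from 97 to 90 bases before the start. That of Hspe1 held 3 overlapping matches, and with them 2 of the longer forms GAANNTTCNNGAA or TTCNNGAANNTTC. The same site was in a window of Hspd1, which is read from the opposite strand. Hsph1 held 1 match, TTCTCGAA, and no match was found in the windows of Dnajb1 and Bag3. Hspa8 and Hsp90aa1 were without a window here. Searched on both strands, the shorter motif was in 12.9% of 32536 distinct windows of the same length and the longer in 0.47%. A match is a description of these letters and not a measured site of binding.

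The array medians ranged from 5.69 to 5.83 (log2), and 79.0% to 81.4% of probe sets on an array reached a value of 4. Of the hepatocyte markers, 6 of 7 were measured, and their summed level was 15.64 to 15.89 (log2) on every array. Ern1 fell by 1.47 ± 0.19 (SE) with the IRE1a hairpin (7.52 against 8.98, limma adjusted p = 0.00395), a fall of 0.56 with the mean of its probe sets. It differed by 0.12 with the WT virus and by 0.46 with the S724A virus (adjusted p = 0.790 and 0.183). The position of its probes relative to the viral insert is not known here, so Ern1 does not check those labels. The difference between the 3′ and 5′ control probe sets of Actb was 1.00 on WT replicate 3 and at most 0.61 on the other arrays.

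The inducible HSP70 genes Hspa1a and Hspa1b were high in all 3 EGFP arrays and lower in all 12 other arrays. They encode near-identical proteins that bind exposed hydrophobic stretches of clients, and they are the classic targets of HSF1. Their transcripts are close copies, so signals of the probe sets named for each may hold RNA of both.

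The Hspa1a probe set (1452388_at) read 11.13, 11.41 and 11.13 on the EGFP arrays (log2 signal). It read 6.75, 7.75 and 7.53 with WT IRE1a, and 7.34, 8.37 and 7.83 with S724A IRE1a. It read 6.45, 6.87 and 7.52 with shCON, and 6.47, 6.04 and 7.40 with shIRE1a. The EGFP arrays stood above every other array, while the other 4 groups overlapped with each other. The 12 other arrays had a median of 7.37, and the lowest EGFP array exceeded the highest of them by 2.76.

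Against EGFP, Hspa1a fell by 3.88 ± 0.36 (SE, n = 3 arrays per group) with WT IRE1a, which is 14.7-fold lower (limma adjusted p = 1.70e-05). With S724A IRE1a it fell by 3.37 ± 0.36, 10.4-fold (adjusted p = 5.94e-05). EGFP exceeded shCON by 4.27 ± 0.36, 19.4-fold (adjusted p = 8.87e-06), and shIRE1a by 4.59 ± 0.36, 24.0-fold (adjusted p = 5.89e-06). These 4 comparisons share the 3 EGFP arrays and are not independent of each other. Without WT replicate 3, the array with the high Actb difference, the fall with WT IRE1a was 3.97 (adjusted p = 7.12e-05). The difference between the IRE1a forms was -0.50 for WT minus S724A (95% confidence interval -1.28 to 0.27, adjusted p = 0.788). For shIRE1a minus shCON it was -0.31 (-1.09 to 0.46, adjusted p = 0.858). S724A exceeded shIRE1a by 1.21 ± 0.36 (adjusted p = 0.0438) although their arrays overlapped, and the other 3 pairs of an IRE1a group with a hairpin group had adjusted p from 0.123 to 0.504.

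Hspa1b had 3 probe sets, and in all 3 the EGFP group was the highest. The set with the highest mean (1452318_a_at) read 12.41, 12.51 and 12.17 with EGFP. It read 9.96, 10.59 and 10.26 with WT IRE1a, and 10.25, 10.92 and 10.33 with S724A IRE1a. It read 9.83, 9.95 and 10.10 with shCON, and 9.92, 9.73 and 10.36 with shIRE1a. Again the 3 EGFP arrays stood above the 12 others, here by at least 1.25. Hspa1b fell by 2.10 ± 0.21 with WT IRE1a (4.28-fold, adjusted p = 2.59e-05) and by 1.86 ± 0.21 with S724A IRE1a (3.64-fold, adjusted p = 7.83e-05). EGFP exceeded shCON by 2.40 ± 0.21 (5.29-fold, adjusted p = 9.90e-06) and shIRE1a by 2.36 ± 0.21 (5.14-fold, adjusted p = 1.40e-05). WT and S724A differed by -0.23 (-0.67 to 0.21, adjusted p = 0.844), and the hairpins by 0.04 (-0.40 to 0.48, adjusted p = 0.974). The 2 further sets, 1427127_x_at and 1427126_at, fell by 2.32 and fell by 2.42 with WT IRE1a and exceeded shCON by 2.52 and 2.60.

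**Figure D1:**
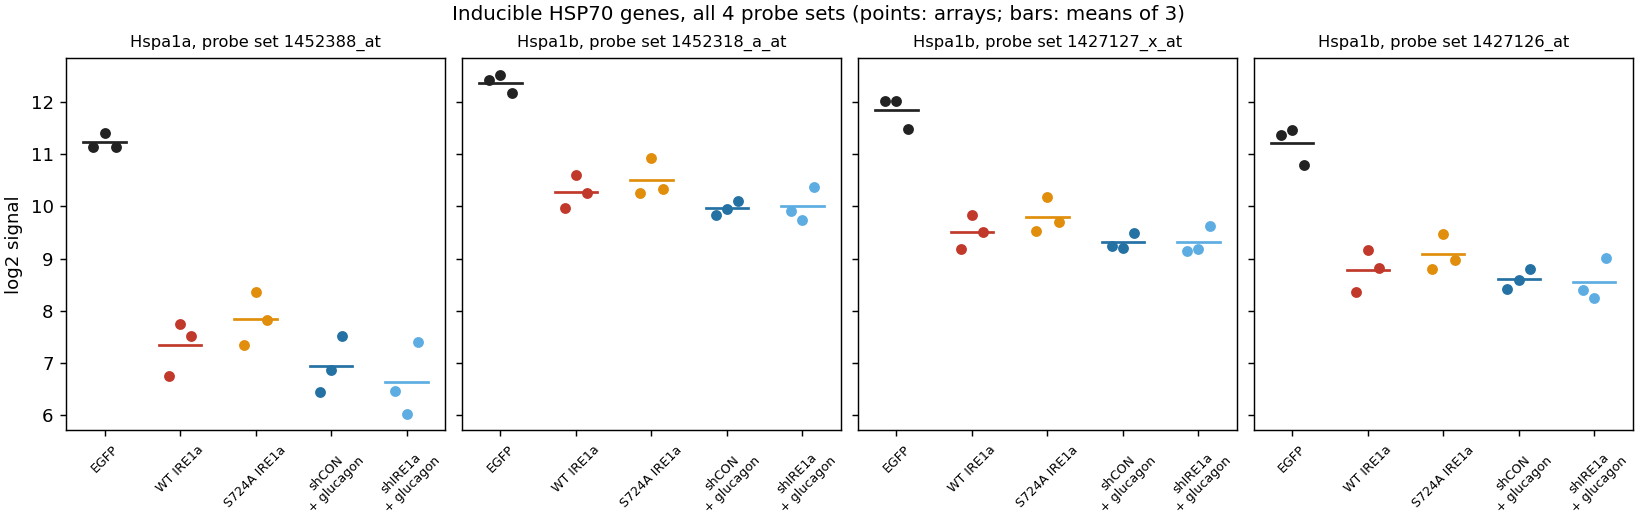
Log2 signal of the 1 Hspa1a and 3 Hspa1b probe sets on each array, by group; points are arrays and bars are means of 3 arrays. In each probe set the 3 EGFP arrays lie above the 12 others, by 2.76 for Hspa1a and by 1.25 to 1.31 for the Hspa1b sets.

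HSC70, the constitutive HSP70 encoded by Hspa8, was high on all arrays and differed little. Its set with the highest mean (1455789_x_at) read 13.91, 13.91 and 13.93 with EGFP, and the 12 other arrays spanned 13.61 to 13.87. The EGFP arrays were thus the highest, by a margin of 0.04. None of its comparisons with EGFP passed the test: the differences were -0.18 for WT and -0.21 for S724A minus EGFP (adjusted p = 0.293 and 0.197), and EGFP minus shCON was 0.20 (adjusted p = 0.152). Of its 3 other sets, 1420623_x_at exceeded shCON by 0.27 ± 0.09 (adjusted p = 0.0499), and 1431182_at differed by -0.07 in the same comparison. Hsph1 encodes HSP110, the exchange factor that releases ADP from HSP70. It (1425993_a_at) read 11.50, 11.34 and 11.20 with EGFP and 10.79 to 11.29 on the others. The EGFP arrays lay above those of WT IRE1a and shIRE1a and overlapped those of S724A IRE1a and shCON. WT minus EGFP was -0.35 ± 0.14 and EGFP minus shIRE1a 0.39 ± 0.14, with adjusted p = 0.156 and 0.109.

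Dnajb1 encodes HSP40, the J-domain protein that delivers clients to HSP70 and stimulates its ATPase. It (1416756_at) read 11.17, 11.09 and 11.13 with EGFP, 10.86, 11.02 and 10.90 with WT IRE1a, and 10.82, 10.94 and 10.95 with S724A IRE1a. With shCON it read 10.63, 10.39 and 10.77, and with shIRE1a 10.67, 10.73 and 10.73. The EGFP arrays were the highest, by 0.07, and the hairpin arrays the lowest. EGFP exceeded shCON by 0.54 ± 0.10 (1.45-fold, adjusted p = 0.00438) and shIRE1a by 0.42 ± 0.10 (1.34-fold, adjusted p = 0.0284). The second call did not survive leaving out EGFP replicate 1, 2 or 3 or shIRE1a replicate 1 or 3, nor a fit of those 6 arrays alone (adjusted p up to 0.120). WT and S724A IRE1a differed from EGFP by -0.21 and -0.23 (adjusted p = 0.298 and 0.214), and WT IRE1a exceeded shCON by 0.33 ± 0.10 (adjusted p = 0.0391). Its other set (1416755_at) exceeded shCON by 0.51 (adjusted p = 0.0222) and did not pass against shIRE1a (0.46, adjusted p = 0.0610).

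Hsp90aa1 encodes the stress-inducible form of cytosolic HSP90, which matures kinases and steroid receptors. Its set with the highest mean (1426645_at) read 13.49, 13.62 and 13.58 with EGFP, and 13.15 to 13.40 on the 12 others. The EGFP arrays were higher by a margin of 0.08. EGFP exceeded shCON by 0.31 ± 0.10 (1.24-fold, adjusted p = 0.0494). That call was lost in 9 of 18 alternatives, among them leaving out any 1 EGFP array or shCON replicate 1 or 2 (adjusted p up to 0.171). WT and S724A IRE1a differed from EGFP by -0.25 and -0.28 (adjusted p = 0.172 and 0.122). Its 4 other sets disagreed in part. 1437497_a_at fell by 0.50 ± 0.13 with WT IRE1a (adjusted p = 0.0365) and exceeded shCON by 0.54 (adjusted p = 0.0157). 1441827_x_at, with a mean of 5.33 with EGFP, fell by 0.48 with S724A IRE1a (adjusted p = 0.0356), and 1438902_a_at and 1433251_at passed in none of these comparisons.

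Hspb1 and Bag3 did not follow the pattern of the HSP70 pair. Hspb1 encodes the small heat shock protein HSP25, which holds unfolded proteins in soluble complexes. It (1422943_a_at) read 13.44, 13.44 and 13.17 with EGFP, and the groups' means ran from 13.08 with WT IRE1a to 13.58 with shIRE1a, with overlapping arrays in 5 of the 6 comparisons. None passed the test, with differences from EGFP of -0.28 for WT and -0.05 for S724A (adjusted p = 0.381 and 0.874). Bag3 encodes the exchange factor that links HSP70 to small heat shock proteins and to autophagy, and it is itself a target of HSF1. It (1422452_at) read 10.21, 10.10 and 9.87 with EGFP, the lowest mean of the 5 groups. With WT IRE1a it read 9.97, 10.52 and 10.74, with S724A IRE1a 10.43, 10.69 and 10.29, with shCON 10.29, 10.23 and 10.53, and with shIRE1a 10.29, 10.18 and 10.29. The EGFP arrays lay below those of S724A and shCON and overlapped the others. WT and S724A minus EGFP were 0.35 and 0.41 ± 0.17 (adjusted p = 0.291 and 0.186). Without WT replicate 1, the lowest of its group, the first was 0.57 (adjusted p = 0.0420).

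The mitochondrial chaperonin genes Hspd1 (HSP60) and Hspe1 (HSP10), which fold proteins imported into the matrix, differed little. Hspd1 (1426351_at) had means of 13.02 with EGFP, 12.90 with WT IRE1a, 13.00 with S724A IRE1a, 12.91 with shCON and 12.78 with shIRE1a. Hspe1 (1450668_s_at) had means of 12.69, 12.62, 12.65, 12.45 and 12.50 in the same order. Neither passed in any of the 6 comparisons with these sets. The other set of Hspe1 (1422579_at) read 11.01, 11.03 and 11.13 with EGFP and 10.60, 10.62 and 10.70 with shIRE1a, a difference of 0.42 ± 0.10 (adjusted p = 0.0245).

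**Figure D2:**
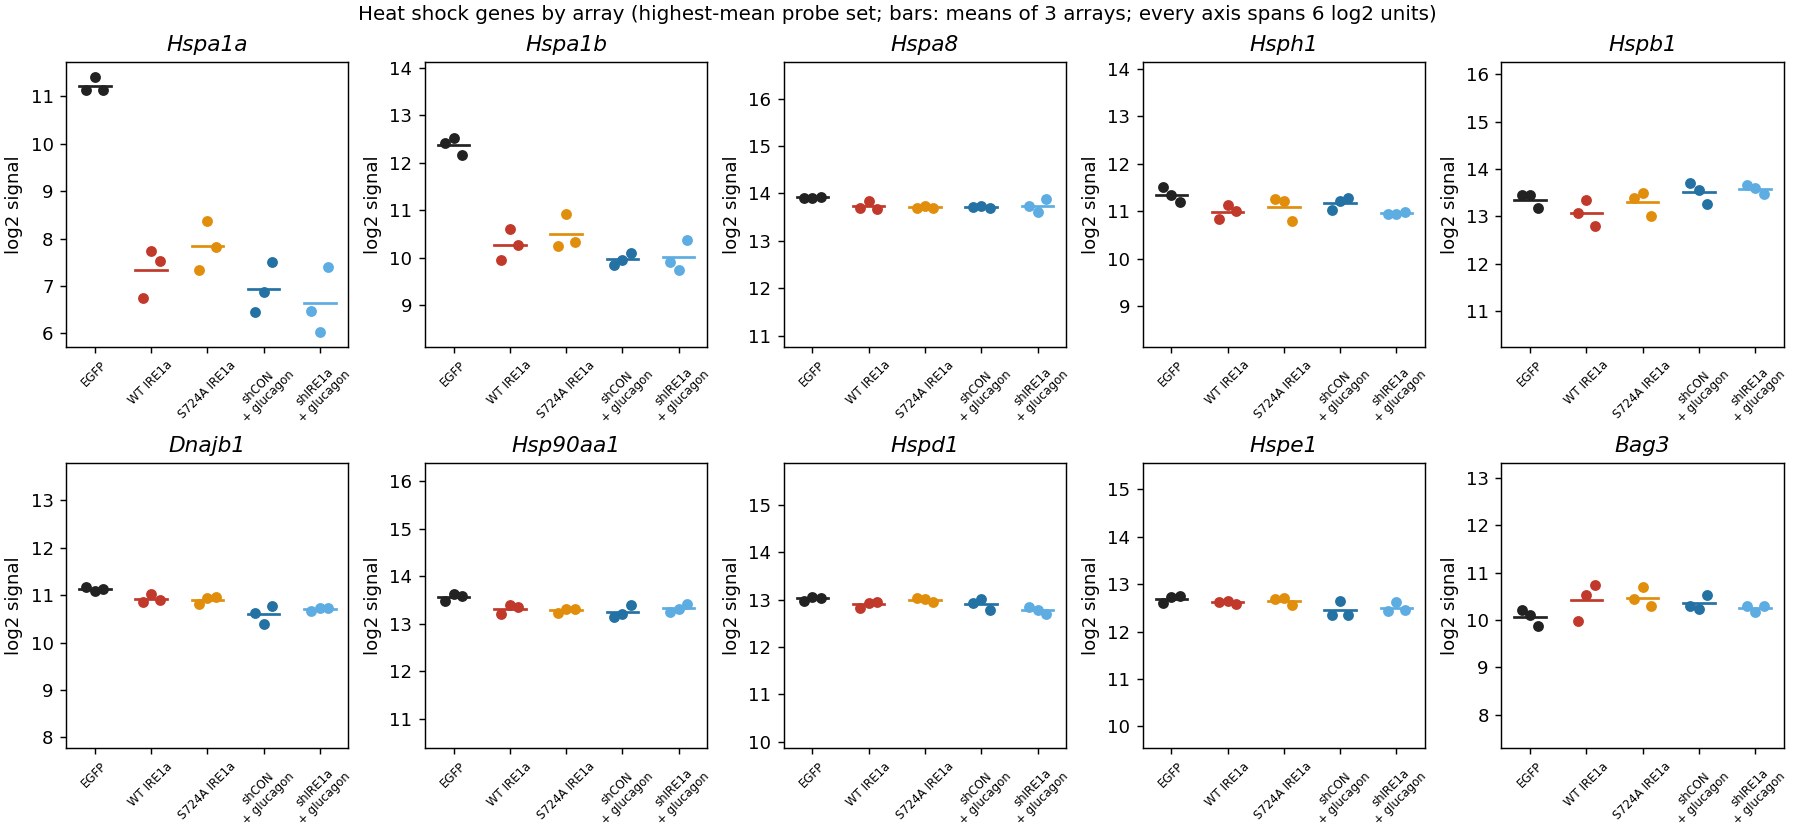
Log2 signal of each of the 10 genes, through its probe set with the highest mean, on each of the 15 arrays, by group; bars are means of 3 arrays. Only for Hspa1a and Hspa1b is the EGFP group separated from the next group by over 1, and for Bag3 its mean is the lowest of the 5.

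In the order of the 5 group means, the neighbours EGFP and S724A IRE1a differed beyond the test's threshold for Hspa1a and Hspa1b. No other pair of neighbours did, for these or for the other 8 genes. All 3 EGFP arrays lay above all 12 others for 5 of the 10 genes (Hspa1a, Hspa1b, Hspa8, Dnajb1 and Hsp90aa1), and below them for 0. Among all 16294 genes tested, 1.80% had all EGFP arrays above and 2.64% below. The margin was only 0.04 for Hspa8, 0.07 for Dnajb1 and 0.08 for Hsp90aa1. By probe set, the EGFP arrays lay above all 12 others in every set of Hspa1a and Hspa1b. Of the further sets of Hspa8, Dnajb1 and Hsp90aa1, they did so only in 1420623_x_at (Hspa8) and 1437497_a_at (Hsp90aa1). The margin was over 1 for 4 of the 16294 genes (0.0245%): Hspa1a at 2.76, the receptor gene Ager at 2.31, Hspa1b at 1.25 and Rgcc, a regulator of the cell cycle, at 1.12. This count of margins and the names in it were chosen after the values were seen.

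**Figure D3:**
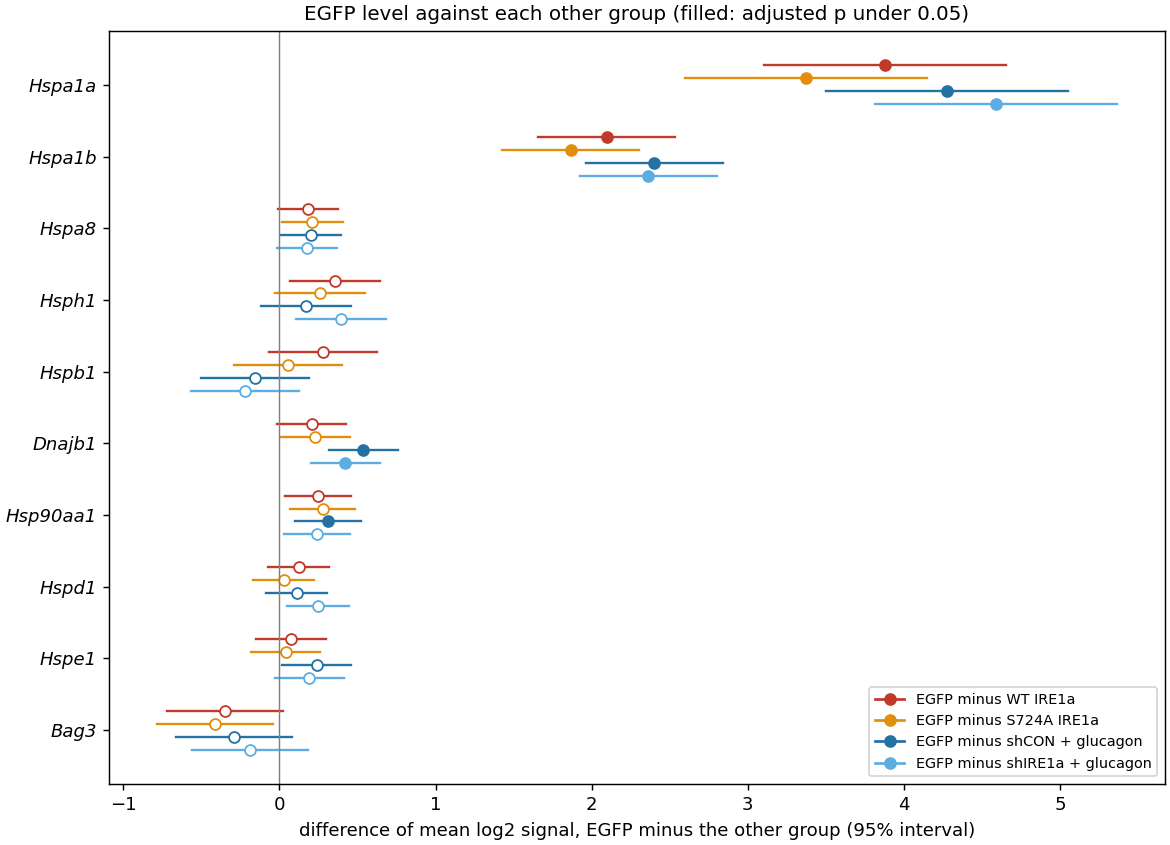
Log2 difference between EGFP and each other group for the 10 genes, with 95% confidence intervals from limma; the 4 comparisons share the EGFP arrays. The differences of Hspa1a (3.37 to 4.59) and Hspa1b (1.86 to 2.40) stand apart from those of the other 8 genes, which are under 0.6 in size.

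With WT IRE1a, 0 of the 10 genes rose and 2 fell against EGFP, where 2.25% of all genes tested fell and 4.50% rose. The other 8 differed by -0.35 to 0.35. Arrays did not overlap, with WT lower, for 7 genes, against 10.9% of all genes. The median difference was -0.23, beside 0.00 for all genes. With S724A IRE1a, 0 rose and the same 2 genes, Hspa1a and Hspa1b, fell, where 1.88% of all genes fell and 3.47% rose. Here 5 genes were lower without overlap, against 16.8% of all genes, and the median was -0.22 beside -0.01. By probe set, 5 of 23 fell in each comparison (2.07% and 1.75% of all probe sets).

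Between WT and S724A IRE1a, limma called 0 of the 10 genes in either direction, and 0.00% of all genes. At an unadjusted p under 0.05 the count was also 0, and the median was -0.08 beside 0.03 for all genes. Between the hairpins 0 were called, at an unadjusted p under 0.05 also 0, where 0.172% of all genes were called. The median was 0.03 beside 0.02.

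EGFP was higher than shCON for 4 of the 10 genes (Hspa1a, Hspa1b, Dnajb1 and Hsp90aa1) and lower for 0, where EGFP was higher for 6.11% of all genes and lower for 8.78%. It was higher than shIRE1a for 3 (Hspa1a, Hspa1b and Dnajb1) and lower for 0, where it was higher for 2.45% of all genes and lower for 3.97%. The medians were 0.22 and 0.24, beside 0.05 and 0.02 for all genes. By probe set, 9 and 6 of 23 were higher with EGFP (5.12% and 2.14% of all probe sets). The 9 became 5 without EGFP replicate 3 or without shCON replicate 2, where calls over all probe sets went from 4156 to 2014 and 2674.

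Of the wider chaperone network, 44 of 50 listed genes were measured, and Hsf1 was not among them. With WT IRE1a 0 rose and 5 fell against EGFP (4.50% and 2.25% of all genes), and the median was -0.13 beside 0.00 for all genes. The count of 0 was not stable: 4 rose and 5 fell with the replicate number as a block, and 2 rose and 6 fell with trended and robust variances. With a filter at a value of 6, 2 rose and 5 fell, and with the mean of a gene's probe sets 2 rose and 4 fell. Calls over all probe sets moved as well, from 1757 of 30046 to 3482 with the block and 1794 with trended and robust variances. They were 1976 of 19868 with the filter at 6, and 1161 of 15865 genes with the mean of probe sets. The J-domain gene Dnajb2, whose product loads ubiquitinated clients onto HSP70, fell by 0.91 ± 0.14 (adjusted p = 0.00152). Stub1, the ubiquitin ligase CHIP that acts with HSP70 and HSP90, fell by 0.73 ± 0.12 (adjusted p = 0.00180). Hspa9, the mitochondrial HSP70, fell by 0.58 ± 0.10 (adjusted p = 0.00198). Cct3, a subunit of the cytosolic chaperonin, fell by 0.45 ± 0.10 (adjusted p = 0.0179) and the J-domain gene Dnaja4 by 0.60 ± 0.15 (adjusted p = 0.0273). The last 2 calls were each lost without EGFP replicate 1, EGFP replicate 3 or WT replicate 2. That of Dnaja4 was also lost without WT replicate 1, and that of Cct3 without WT replicate 3 (adjusted p up to 0.141 for Dnaja4 and 0.579 for Cct3 over all alternatives). The count was 3 without EGFP replicate 3 or WT replicate 2, where calls over all probe sets went from 1757 to 1144 and 1398.

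With S724A IRE1a 0 rose and 3 fell (3.47% and 1.88% of all genes), with a median of -0.10 beside -0.01. Dnajb2 fell by 0.84 ± 0.14 (adjusted p = 0.00294), Cct3 by 0.52 ± 0.10 (adjusted p = 0.00849) and Stub1 by 0.45 ± 0.12 (adjusted p = 0.0404). Without probe sets of the suffix _s_at, _x_at or _a_at, another set stood for Cct3 and its difference turned to 0.18 (adjusted p = 0.599). The call of Cct3 was also lost without S724A replicate 2. That of Stub1 was lost without EGFP replicate 1 or 2 or any 1 S724A array (adjusted p up to 0.139). The count was 1 without S724A replicate 2, where calls over all probe sets went from 1466 to 780. With the replicate number as a block, and likewise with the mean of a gene's probe sets, 2 rose and 3 fell. Calls over all features were 3128 of 30046 probe sets with the block and 991 of 15865 genes with the mean. None of the 5 genes named for WT IRE1a passed between EGFP and a hairpin group. EGFP minus shCON was 0.13 for Dnajb2, -0.03 for Stub1, 0.09 for Hspa9, 0.04 for Cct3 and -0.29 for Dnaja4 (adjusted p from 0.216 to 0.873). EGFP minus shIRE1a was 0.28, 0.07, 0.13, 0.05 and -0.07 in the same order (adjusted p from 0.285 to 0.839).

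EGFP was higher than shCON for 4 genes of the network and lower for 2, where it was higher for 6.11% of all genes and lower for 8.78%. The median was -0.02 beside 0.05 for all genes. With the mean of a gene's probe sets 4 were higher and 5 lower, where 2537 of 15865 genes were called. Fkbp5, an HSP90 cochaperone of the steroid receptors and a known glucocorticoid target, was higher by 1.02 ± 0.11 (adjusted p = 7.39e-05) and by 1.00 ± 0.11 against shIRE1a (adjusted p = 0.000115). It did not pass between WT or S724A IRE1a and EGFP, with differences of 0.32 and 0.13 (adjusted p = 0.108 and 0.535). Stip1, the adaptor HOP between HSP70 and HSP90, was higher by 0.43 and Bag5 by 0.45 (adjusted p = 0.0156 and 0.0272), as was Bag2, named after its values were seen, by 0.72 (adjusted p = 0.0349). Hspa4, an HSP110 relative, was lower by 0.57 and the small heat shock gene Cryab by 0.93 (adjusted p = 0.0124 and 0.0233). The call of Hspa4 was lost without EGFP replicate 3 or shCON replicate 1, that of Stip1 also without shCON replicate 2, and that of Cryab without EGFP replicate 2, EGFP replicate 3 or shCON replicate 2. The calls of Bag5 and Bag2 were lost without EGFP replicate 2 or 3 or shCON replicate 1 or 3, and that of Bag2 also without EGFP replicate 1 (adjusted p up to 0.145). The count of 6 became 3 without EGFP replicate 2, 1 without EGFP replicate 3 and 2 without shCON replicate 1. In these fits calls over all probe sets went from 4156 to 2152, 2014 and 2010. Against shIRE1a, 2 were higher, Fkbp5 and Bag5 (0.50, adjusted p = 0.0303), and 0 lower, where EGFP was higher for 2.45% of all genes and lower for 3.97%. The balance turned with the mean of a gene's probe sets, to 1 higher and 3 lower, where 1089 of 15865 genes were called. Without EGFP replicate 2 or 3, or shIRE1a replicate 1 or 3, 1 was left, and Bag5 lost its call in each of these fits. Calls over all probe sets there went from 1687 to 709, 655, 540 and 1107. Between WT and S724A and between the hairpins, limma called 0 of the 44, with 3 and 0 at an unadjusted p under 0.05.

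**Figure D4:**
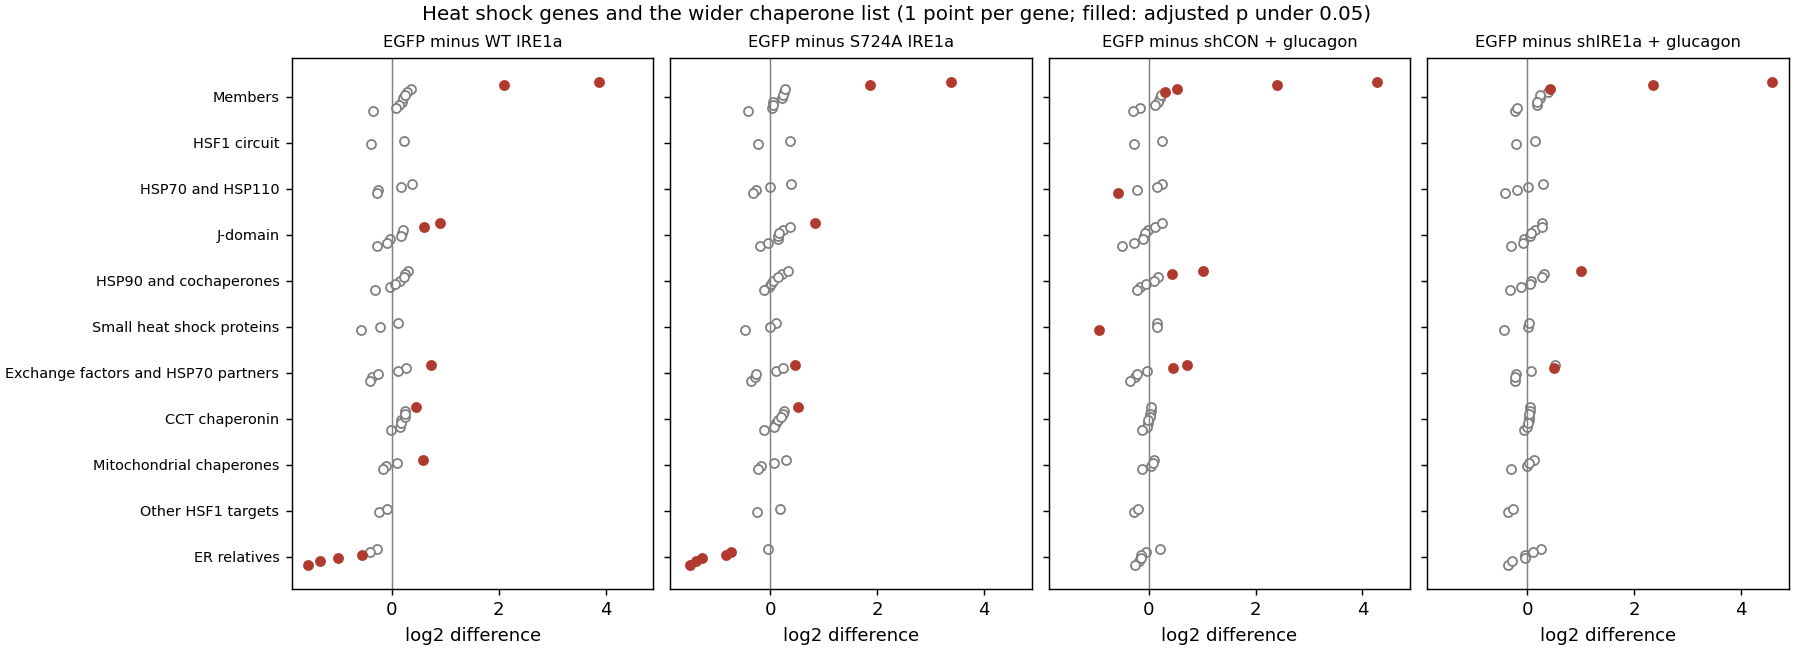
Log2 differences of EGFP minus each other group for the 10 heat shock genes (top row) and for the chaperone network genes by class; points are genes and filled points passed the test at an adjusted p of 0.05. The ER relatives (bottom row) lie left of 0 against both IRE1a viruses, so they were lower with EGFP. There 4 and 5 of the 6 are filled, where 4.50% and 3.47% of all genes rose with WT and S724A IRE1a.

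The ER relatives of these families went the other way from Hspa1a and Hspa1b with the IRE1a viruses. Of 6, 4 rose with WT IRE1a and 5 with S724A IRE1a, where 4.50% and 3.47% of all genes rose. Between EGFP and either hairpin 0 of the 6 passed. There EGFP was higher than shCON and shIRE1a for 6.11% and 2.45% of all genes, and lower for 8.78% and 3.97%. Hspa5, the ER HSP70 known as BiP, read 13.17 ± 0.05 (SD) with EGFP, 13.73 ± 0.03 with WT IRE1a, 14.00 ± 0.07 with S724A IRE1a, 12.96 ± 0.23 with shCON and 12.92 ± 0.08 with shIRE1a. Hsp90b1, the ER HSP90, rose by 1.01 ± 0.11 with WT IRE1a and by 1.40 ± 0.11 with S724A IRE1a (adjusted p = 7.61e-05 and 3.20e-06). Hyou1, the ER HSP110, differed by 0.28 and 0.04 (adjusted p = 0.307 and 0.890).

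Across the 15 arrays, the gene whose values followed those of Hspa1a most closely was Hspa1b (Pearson r = 0.99). Of genes outside the list, Jade3 (r = 0.96), Vash2 (0.93), Rgcc (0.91), Igsf9 (0.91) and Tmem209 (0.90) came next. Among the members, Hsp90aa1 (0.87), Hspa8 (0.81), Dnajb1 (0.79) and Hsph1 (0.66) were higher than Hspd1 (0.55) and Hspe1 (0.51). Hspb1 and Bag3 were at -0.16 and -0.30. These values are a description: the points share 5 groups, and the 3 EGFP arrays stand apart from the rest in Hspa1a.

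Markers of other cells and of handling were read beside these results. In bulk RNA, fewer cells of a type and less RNA per cell cannot be told apart. Of 4 tested stellate cell markers, 2 were higher with EGFP than with shCON (Acta2 and Reln) and 1 than with shIRE1a (Reln). EGFP was higher for 6.11% and 2.45% of all genes in these comparisons. None of the stellate markers passed against the IRE1a viruses. Lrat, the other listed stellate marker, had group means of 3.14 to 3.30 and was too dim to be tested. Of the hepatocyte markers, Hnf4a was higher with WT IRE1a than with EGFP by 0.74 (adjusted p = 0.0303). With S724A it was higher by 0.53, and EGFP minus shCON and shIRE1a was -0.54 and -0.52 (adjusted p = 0.119, 0.0695 and 0.121). Tat, an enzyme induced by glucagon, was lower with EGFP than with shCON and shIRE1a by 1.15 and 1.05 (adjusted p = 0.0133 and 0.0372). WT and S724A IRE1a minus EGFP, without glucagon, were 0.47 and 0.78 for Tat and did not pass (adjusted p = 0.381 and 0.116). The other measured hepatocyte markers did not pass. WT minus EGFP was -0.18 for Alb, -0.11 for Ttr, -0.10 for Cps1 and 0.14 for Apoa1. EGFP minus shCON was 0.14, 0.05, -0.15 and 0.22 in that order. The endothelial marker Cdh5 was lower with EGFP than with shCON by 0.64 (adjusted p = 0.0281). The other endothelial markers did not pass and were split. EGFP minus shCON was 0.71 for Stab2, 0.39 for Lyve1, 0.02 for Kdr and -0.35 for Pecam1. The summed level of the 5 stellate markers was 8.25 to 8.45 with EGFP, 8.14 to 8.38 with WT IRE1a, 8.11 to 8.20 with S724A IRE1a, 7.98 to 8.05 with shCON and 8.02 to 8.27 with shIRE1a. The summed level of the 5 macrophage markers was 11.66 to 11.87 with EGFP, 12.10 to 12.20 with WT IRE1a, 11.88 to 12.11 with S724A IRE1a, 11.11 to 11.68 with shCON and 11.60 to 11.96 with shIRE1a. Nearly all of this sum was Cd68, at 11.66 with EGFP, where Csf1r was at 6.88, Clec4f at 5.44, Adgre1 at 5.38 and Marco at 4.74. WT minus EGFP was 0.41 for Cd68, and 0.02, -0.06, -0.11 and 0.04 for the others in that order. Immediate early genes respond to handling and to hormones. Of 10 of them, 3 were lower with EGFP than with shCON (Fosb, Egr1 and Zfp36, by 1.09, 1.13 and 0.82), where EGFP was lower for 8.78% of all genes. In the other 5 comparisons 0 of the 10 passed. The part of these markers and genes in the differences of the heat shock genes was not tested.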

How the data were processed

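Per the submitters' processing notes the authors used GCRMA, which corrects background, normalises by quantiles and summarises probe sets, with no version given. The deposited values were read as log2 signals from their range. Of 45101 probe sets, 64 were controls, 932 had several symbols and 9160 none; these were left out, as were probe sets without a value of 4 or more in at least 3 arrays. A model of 5 group means was fitted to the 15 arrays and 30046 probe sets (R 4.3.3, limma 3.58.1, lmFit and eBayes, 10 residual degrees of freedom). The moderated test was two-sided, and p-values were adjusted per comparison (Benjamini-Hochberg, threshold 0.05). Each gene was represented by its probe set with the highest mean, which gave 16294 genes; the background of genes is counted over these. The median half-width of a 95% confidence interval was 0.31, limited by the number of arrays. Fold changes are 2 to the power of the log2 difference. The script was tested on simulated data.

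The members and lists were chosen with earlier results of these data known. Named were all members, Ern1, up to 5 genes of the network per comparison with the smallest p among those past the threshold without overlap, the 5 genes outside the list most like Hspa1a, and Hspa5, Hsp90b1, Hyou1 and Hspa9. Markers of hepatocytes, macrophages, endothelial, stellate, cholangiocyte, lymphocyte and neutrophil, and erythroid cells were read. Endothelial sums were 7.75 to 8.35, cholangiocyte sums 7.72 to 8.53, and of 3 erythroid genes 1 was measured. Cholangiocyte, macrophage, erythroid, and lymphocyte and neutrophil markers had 0 calls.

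The labels do not tie replicate numbers to experiments. Residuals of same-number arrays of an arm correlated above 0.1 in 11 of 12 pairs (r of 0.10 to 0.65 over the 12). EGFP 2 with WT 2 was the other. Across arms they did so in 4 of 18 pairs, so the block was taken as pairing within an arm. It was fitted for WT against EGFP as well, where r was 0.24 for replicate 1, 0.10 for replicate 2 and 0.27 for replicate 3. Alternatives were other normalisations, filters, a floor of 4, variance priors, probe set rules, a block and leaving out each array.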

Additional observations from a re-analysis of the deposited data

How the results depend on the processing

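Hspa1a and Hspa1b kept their direction and call in all 17 or 18 alternatives of each comparison with EGFP. Hspa1a ranged from -4.08 to -3.58 for WT, from -3.63 to -3.12 for S724A, from 4.03 to 4.56 over shCON and from 4.29 to 4.97 over shIRE1a (highest adjusted p = 0.000765; Hspa1b 0.00156).

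Counts of genes past the threshold moved more in the wider network. With trended and robust variances, WT minus EGFP had 8 network genes (2 rose, 6 fell), and S724A minus EGFP 5 network genes, all lower, and 8 member probe sets. Calls over all 30046 probe sets were then 1794 for WT and 1490 for S724A. Another alternative left out probe sets with the suffix _s_at, _x_at or _a_at, among them all sets of Hsph1 and Hspb1. Fewer member probe sets were then left to test. WT had 2 network genes and 2 member probe sets, S724A had 0 and 2, and EGFP minus shCON had 4 member probe sets. Calls over the 22869 probe sets kept were 1088, 855 and 2902 in the same order. The log2 difference of Hspa8 turned to -0.073 for EGFP minus shCON because another probe set then stood for it, and Cct3 turned to 0.18 for S724A. With the mean of a gene's probe sets, the network had 5 for S724A (2 rose, 3 fell), 9 for EGFP minus shCON (4 higher, 5 lower) and 4 for EGFP minus shIRE1a (1 higher, 3 lower). Over all 15865 genes of that fit, 991, 2537 and 1089 were called in the same order. Leaving out 1 array gave 3 to 5 network genes for WT, 1 to 3 for S724A, 1 to 6 over shCON and 1 to 3 over shIRE1a. It gave 5 to 8 member probe sets over shCON and 4 to 5 for WT and for S724A. Calls over all 30046 probe sets in these fits ran from 1006 to 1511 for WT and from 734 to 1368 for S724A. They ran from 2010 to 4221 over shCON and from 540 to 2115 over shIRE1a.

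With the replicate number as a block, the members called stayed at 2, 2, 0 and 0 within the arms and at 4 and 3 across them. The network had 9 genes for WT (4 rose, 5 fell) and 5 for S724A (2 rose, 3 fell). The block changed no call of a member. Over all 30046 probe sets, it moved the calls from 1757 to 3482 for WT and from 1466 to 3128 for S724A against EGFP. Between WT and S724A they went from 0 to 4, and between the hairpins from 51 to 244. Limma called 0 members between WT and S724A and between the hairpins in every alternative run. Signal over background limits 2 of the 5 Hsp90aa1 sets, whose group means were between 4.85 and 5.64.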
